A study of Rattus norvegicus with 12 samples.

Results

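The scavenger receptors are described here in colony derived cells (Colony) and in adherent cells (A16) of the F111 line. Their 10 listed genes are Colec12, Msr1, Scara3, Scara5, Scarb1, Cd36, Olr1, Stab1, Cd163 and Lrp1, and a probe set was taken as a member where the array annotation gives it 1 of these symbols and no other. Of the 10 genes, 9 were measured, by 11 of the 31042 probe sets tested. Scarb1 and Lrp1 had 2 probe sets each and the other 7 genes 1 each. Msr1, the macrophage scavenger receptor, had no probe set of its own and was not analysed here. A further probe set that names Cd36 together with another gene was not used. The genes had been chosen on the Colony against A16 differences of these same arrays, so the values of the 9 genes are given as a description and no p-value is given for them.

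F111 is a line of fibroblasts from Fischer rats, and all samples came from it. Colony cells were F111 cells that had been kept in suspension for 16 h (NA16) and then grew for 7 days in soft agar; they were freed from the agar and let attach for a short period before processing. A16 cells were F111 cells left to adhere to plastic for 16 h and served as the control. Both were grown in the same medium with fetal calf serum. Total RNA of each group was hybridised to 3 Affymetrix rat 230 2.0 arrays, namely biological replicate 1, a technical replicate 2 whose label carries no biological number, and biological replicate 2. On the log2 scale the mean of the technical array and biological replicate 1 was taken, which gave n = 2 cultures per group; nothing in the labels says more of how separate these cultures were. The labels of the second Colony culture name colonies except in 1 field, which names tumour formation, and the culture was kept as Colony. Because colonies are selected survivors of suspension, Colony and A16 cells differ in history, time in culture and growth support together, and these cannot be told apart.

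Scavenger receptors are membrane proteins of unrelated folds that bind modified lipoproteins and other polyanionic ligands and carry them into the cell. Class A receptors (Msr1, Scara3, Scara5 and Colec12) are trimers with a collagen-like stalk, class B receptors (Scarb1 and Cd36) cross the membrane at both ends, and Olr1, Stab1, Cd163 and Lrp1 belong to further classes with lectin, fasciclin, cysteine-rich or low density lipoprotein receptor domains. Several are known best from macrophages and endothelium, whereas Lrp1 is a common endocytic receptor of fibroblasts, where it clears proteases bound to their inhibitors.

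Colec12 was the member with by far the largest difference and Lrp1 a member whose groups lay close together, so the start regions of both genes are shown for comparison. Each window runs from 250 bases before to 50 bases after the start of the gene, as RefSeq gives it for the rat build GRCr8, at chr18:1005537-1005836 on the plus strand for Colec12 and at chr7:65346147-65346446 on the minus strand for Lrp1. Capitals mark the GC box GGGCGG and the CCAAT motif, on either strand.
Colec12: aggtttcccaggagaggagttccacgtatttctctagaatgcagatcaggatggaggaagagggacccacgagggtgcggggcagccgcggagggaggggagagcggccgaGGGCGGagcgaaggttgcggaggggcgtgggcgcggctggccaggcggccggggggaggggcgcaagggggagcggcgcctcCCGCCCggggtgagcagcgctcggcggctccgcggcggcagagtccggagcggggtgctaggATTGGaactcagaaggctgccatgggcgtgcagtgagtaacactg
Lrp1: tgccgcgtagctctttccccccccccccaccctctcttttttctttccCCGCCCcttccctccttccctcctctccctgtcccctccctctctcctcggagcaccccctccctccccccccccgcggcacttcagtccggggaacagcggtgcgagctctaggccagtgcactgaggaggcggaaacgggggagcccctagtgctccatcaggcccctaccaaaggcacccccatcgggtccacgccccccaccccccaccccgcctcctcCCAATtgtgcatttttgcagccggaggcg
The Colec12 window held 2 GC boxes, 139 and 57 bases before the start, and 1 CCAAT motif, and the Lrp1 window held 1 of each. Among 33469 windows of the same length in the table, 33.1% held a GC box and 37.5% a CCAAT motif. The dinucleotide CG occurred 29 times in the Colec12 window and 16 times in the Lrp1 window, against a median of 7 over all windows. TATAAA, the AP-1 motif TGANTCA and the E box CACGTG, which 14.2%, 7.33% and 6.42% of windows held, were not among the letters of either window. Of the members 6 had a window in the table, and the array measured RNA only.

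Colec12, the collectin placenta 1 that joins a collagen-like stalk to a C-type lectin head and takes up oxidised lipoprotein, was far lower in Colony cells. Its RMA intensity was 22.7, 28.1 and 20.6 on the Colony arrays of biological replicate 1, technical replicate 2 and biological replicate 2, against 2122, 2030 and 2153 on the A16 arrays in the same order. The groups were far apart, with the lowest A16 array still 72.3 times the highest Colony array, while the 3 arrays of a group differed at most 1.36-fold in Colony and 1.06-fold in A16 cells. On the log2 scale Colec12 had 4.51 ± 0.21 in Colony cells and 11.05 ± 0.04 in A16 cells (SD, n = 2 cultures each). The log2 difference was -6.53 (standard error 0.15), or 92.6-fold lower in Colony cells by RMA, and was among the lowest of all 31042 probe sets. The Colony level lay at the 6.63 percentile of probe sets and the A16 level at the 94.2 percentile. The Colony level is so dim that the size of the fold is uncertain and depends on how the probes are summarised. With PLIER, the other deposited summary, it was 55.3-fold lower as log2(value + 16) and 93.1-fold lower as log2(value). In bulk RNA, fewer cells that express a gene and less of its RNA per cell cannot be told apart.

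The other class A receptors differed much less between the groups. Scara5, known in mouse as a receptor that takes up ferritin, had RMA intensities of 27.1, 26.3 and 26.9 on the Colony arrays, against 34.6, 46 and 42.1 on the A16 arrays. All Colony arrays lay below all A16 arrays, with a log2 difference of -0.61 (standard error 0.13), or 1.53-fold lower in Colony cells. Scara3, known from human cells as a receptor induced by oxidative stress, had 53.2, 57.2 and 42.6 on the Colony arrays, against 68.9, 66.8 and 63.9 on the A16 arrays. Again the groups did not overlap, and biological replicate 2 was the lowest array of both. The log2 difference of Scara3 was -0.44 (standard error 0.16) with RMA, -0.91 with PLIER as log2(value + 16) and -1.28 with PLIER as log2(value), so its size depended on the summary. Its PLIER intensity was 23, 24.6 and 26.1 on the Colony arrays, against 57.9, 54.2 and 65.7 on the A16 arrays. Scara5 and Scara3 lie near each other on rat chromosome 15, with 3 protein coding genes between them in the RefSeq annotation.

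**Figure D1:**
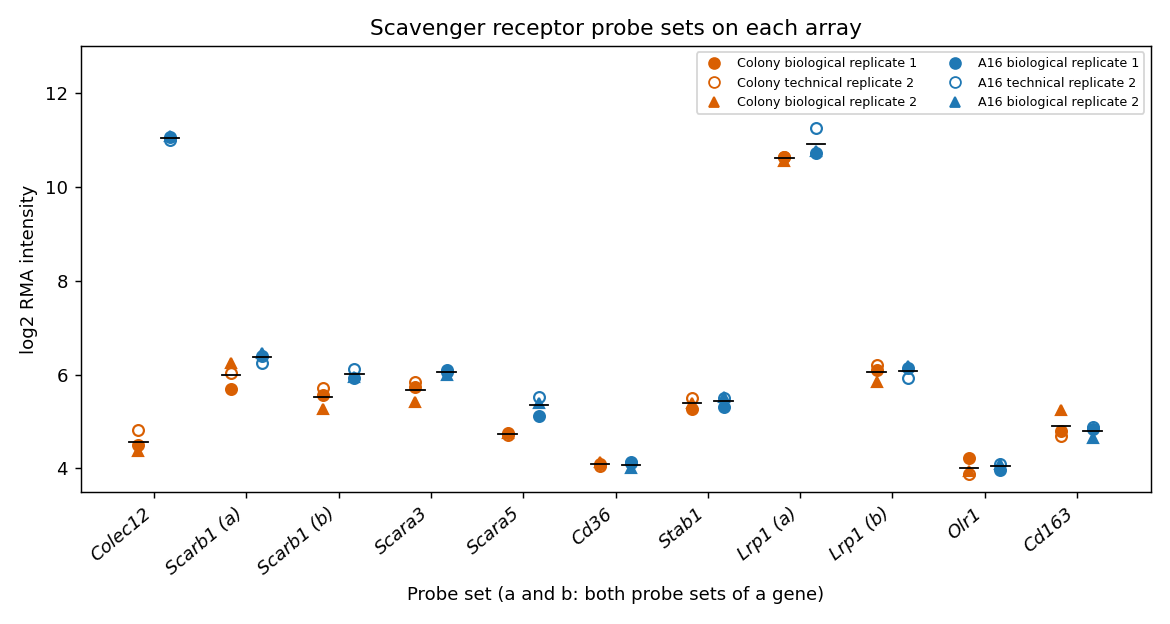
Log2 RMA intensity (vertical axis) of the 11 scavenger receptor probe sets (horizontal axis) on each array, Colony in orange and A16 in blue; filled circles are biological replicate 1, open circles technical replicate 2, triangles biological replicate 2, and short bars means over the 3 arrays. Colec12 separates the groups, at 20.6 to 28.1 in Colony against 2030 to 2153 in A16 cells on the linear scale, while the other 10 probe sets lie close together.

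Scarb1, the class B receptor that exchanges cholesterol with high density lipoprotein, was lower in Colony cells by both of its probe sets, but by little. The probe set 1386956_at had 47.4, 52.2 and 38.6 on the Colony arrays, against 61.2, 69.6 and 61.8 on the A16 arrays, a log2 difference of -0.53 (standard error 0.16). Its groups did not overlap in RMA or PLIER values. The probe set 1367855_at had 52, 65.6 and 76.2 on the Colony arrays, against 84.3, 76.2 and 88.3 on the A16 arrays. Here biological replicate 2 of the Colony group reached the lowest A16 array to within rounding, the log2 difference was -0.34 (standard error 0.17), and the PLIER values of the groups overlapped. Cd36, the fatty acid translocase and thrombospondin receptor, was among the dimmest probe sets, at the 1.12 percentile in Colony and the 1.44 percentile in A16 cells. Its RMA intensity was 17, 16.7 and 17.6 on the Colony arrays, against 17.6, 17.3 and 16 on the A16 arrays, so the groups overlapped (log2 difference 0.04, standard error 0.13). PLIER gave Cd36 another picture, with 61.9, 85.9 and 98 on the Colony arrays, all below the lowest A16 array, at 107. The sign of Cd36 thus differed between the summaries of the same arrays.

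Lrp1 was measured by 2 probe sets, in each of which the groups lay close together. The probe set 1388416_at had 1591, 1600 and 1492 on the Colony arrays, against 1676, 2437 and 1730 on the A16 arrays. All Colony arrays were the lower ones, but the A16 technical array stood apart from the other A16 arrays. The log2 difference was -0.28 (standard error 0.14), and -0.14 (standard error 0.14) with the technical arrays left out. The second probe set of Lrp1, 1396767_at, had 68.7, 73.9 and 57.2 on the Colony arrays, against 70, 60.9 and 72.1 on the A16 arrays, and its groups overlapped with a log2 difference of -0.10 (standard error 0.16). By PLIER as log2(value + 16) the first probe set was 1.27-fold lower in Colony cells. Its RMA log2 difference was -0.39 without A16 replicate 2 and -0.16 without A16 replicate 1.

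Of the receptors known best from macrophages and endothelium, Stab1, Olr1 and Cd163 had groups that overlapped. Stab1, which clears the matrix protein Sparc and other ligands in macrophages and sinusoidal endothelium, had 38.4, 45.2 and 42.3 on the Colony arrays, against 39.5, 45.5 and 45.8 on the A16 arrays, a log2 difference of -0.07 (standard error 0.13). Olr1, the lectin-like receptor of oxidised low density lipoprotein, had 18.6, 14.7 and 15.3 on the Colony arrays, against 15.7, 17.1 and 17 on the A16 arrays, with a log2 difference of -0.07 (standard error 0.13). These intensities lay at the 0.338 percentile of probe sets in Colony and the 1.42 percentile in A16 cells. Cd163, which takes up haemoglobin bound to haptoglobin, had 27.7, 25.9 and 38.2 on the Colony arrays, against 28.5, 29.5 and 25.1 on the A16 arrays. It had the highest log2 difference of the members, 0.24 (standard error 0.20), which came from biological replicate 2 of the Colony group, and without that culture the difference was -0.01. Detection calls were not analysed, and whether these probe sets lie above background is unknown.

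**Figure D2:**
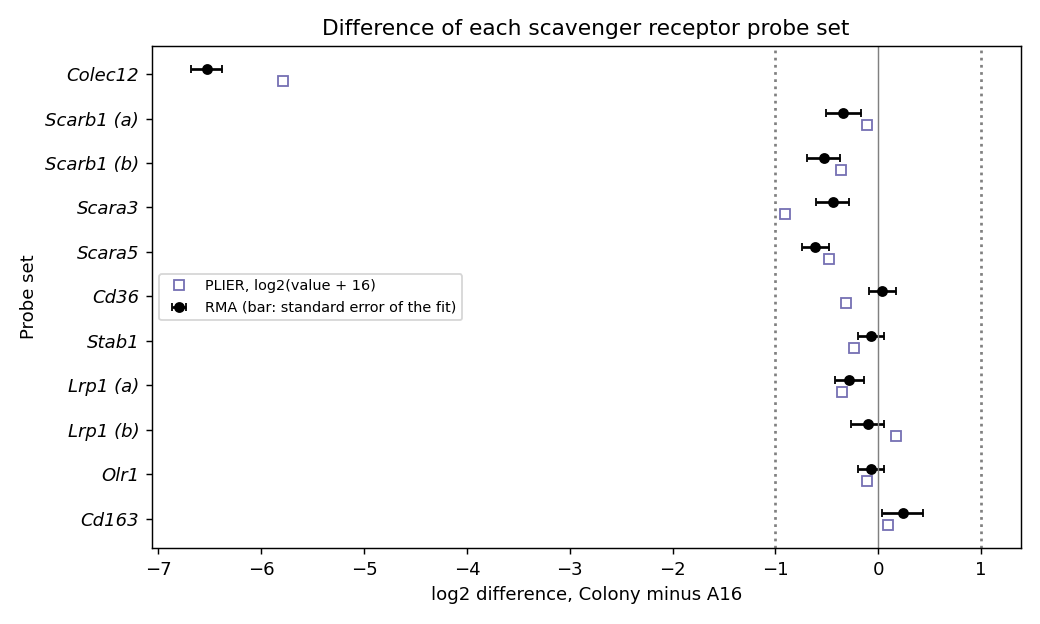
Log2 difference, Colony minus A16 (horizontal axis), of each of the 11 probe sets (vertical axis), by RMA with the standard error of the fit (black, n = 2 cultures per group) and by PLIER as log2(value + 16) (open squares); the dotted lines stand at 2-fold. Colec12 lies at -6.53, and the other 10 probe sets lie between -0.61 and 0.24 by RMA.

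Among the members 1 of the 11 probe sets, that of Colec12, was past the call threshold in the lower direction (more than 2-fold apart with a limma adjusted p below 0.05), and 0 were past it in the higher direction. Of all 31042 probe sets 5.81% were called lower and 4.0% higher by the same rule, 9.81% in either direction. Every Colony array lay below every A16 array in RMA for 6 of the 11 probe sets, among them the near tie of Scarb1, against 20.5% of all probe sets, and in PLIER also for 6, against 22.4%. In both summaries this held for 5, against 17.3%, namely Colec12, Scara3, Scara5, Scarb1 probe set 1386956_at and Lrp1 probe set 1388416_at. No member had every Colony array above every A16 array, which 25.4% of all probe sets had in RMA. The median log2 difference was -0.28 over the 11 probe sets and 0.05 over all probe sets. Since the members were chosen with this contrast known, nothing further is read from these shares.

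Genes that work with scavenger receptors were described through 5 lists that hold no member. They name 127 genes, of which 107 were measured, each by its brightest probe set. Of the 107, 3 rose, 7 fell and 97 did not pass, so that 9.35% were called, against 9.12% of all 14217 genes. Their median log2 difference was 0.06, against 0.05 for all genes. Among genes that did not pass, another probe set was called lower for Scarf2, Pear1, Mesd, Soat1, App, Epn2, Cav1 and Ap2b1. For Plin2 another probe set was called higher.

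Among 22 measured genes of the list of other scavenger receptors, which also holds secreted proteins, 0 rose and 2 fell in Colony cells. Of all genes 4.36% and 4.75% were called in these directions, and the list had a median log2 difference of -0.03. Neither of the 2 that fell by their brightest probe set is a membrane receptor. Among membrane receptors that did not pass, Scarf2 had a log2 difference of -0.37. Its other probe sets gave -0.11, -1.57 and -1.86, the last 2 called lower. Pear1 had -0.90 and Tlr4 -0.97, both under the fold threshold, and another Pear1 probe set was called lower at -1.42. These receptors were named after their values were seen. Lgals3bp, a secreted glycoprotein with the scavenger receptor cysteine-rich domain, had 431, 373 and 352 on the Colony arrays, against 5042, 5491 and 5158 on the A16 arrays. It fell with a log2 difference of -3.79 (standard error 0.14, adjusted p = 1.64e-05 from limma). Ssc5d, a soluble protein with the same kind of domain, fell by 1.11 on the log2 scale (standard error 0.24, adjusted p = 0.0165 from limma), with 170, 168 and 153 on the Colony arrays, against 266, 275 and 448 on the A16 arrays. Biological replicate 2 was the highest A16 array of Ssc5d, and without it the log2 difference was -0.75, under the fold threshold. It also no longer passed without Colony replicate 2 (-1.04), with the 6 arrays as separate samples (-0.97) and with the technical arrays averaged with biological replicate 2 (-0.89), while PLIER as log2(value + 16) gave -2.52. Scarb2, which carries glucocerebrosidase to lysosomes, and Cd68, a lysosomal glycoprotein of macrophages, had log2 differences of 0.09 and 0.11 (adjusted p = 0.707 and 0.657 from limma). Marco was not measured. Stab2, the close relative of Stab1, had an adjusted p of 0.0450 from limma but a fold of only 1.52 (log2 difference 0.61), and was chosen after its values were seen.

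In the low density lipoprotein receptor family and its adaptors, 0 of 19 measured genes rose and 2 fell, with a median log2 difference of 0.10. Vldlr, the very low density lipoprotein receptor, had 372, 399 and 387 on the Colony arrays, against 939, 1009 and 800 on the A16 arrays (log2 difference -1.19, standard error 0.15, adjusted p = 0.00196 from limma). Of its other 3 probe sets 2 gave -1.26 and -1.30 and the third -0.04, and the mean of the 4 gave a log2 difference of -0.95, under the fold threshold. Lrp11, a membrane protein of the same family, fell by 1.54 on the log2 scale (adjusted p = 5.16e-04 from limma), and its 3 other probe sets gave log2 differences between -1.96 and -0.92. Lrpap1, the chaperone that keeps Lrp1 from binding ligands on its way to the surface, had a log2 difference of -0.50 (adjusted p = 0.0532 from limma). Dab2, a clathrin adaptor of these receptors, had -0.55 (adjusted p = 0.0439, under the fold threshold), and Pdzk1, which anchors Scarb1 in hepatocytes, had 0.33 (adjusted p = 0.114).

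Of 26 measured genes of lipid handling after uptake 2 rose and 0 fell, with a median log2 difference of 0.16. Abca1, the exporter that loads cholesterol onto apolipoprotein A-I, had 314, 352 and 298 on the Colony arrays, against 127, 130 and 132 on the A16 arrays (log2 difference 1.28, standard error 0.13, adjusted p = 9.91e-04 from limma). Its other probe sets gave 1.26, 1.40 and 0.80, so all pointed the same way. Cd81, a tetraspanin of the cell surface that the list holds besides its lipid genes, rose as well. Its log2 difference was 1.34 (adjusted p = 7.60e-04 from limma). Abcg1, which exports cholesterol to high density lipoprotein, had a log2 difference of 0.21 and Apoe, an apolipoprotein that binds receptors of this family, 0.11 (adjusted p = 0.492 and 0.628 from limma). Other probe sets gave 0.06 and -0.73 for Abcg1 and -0.37 for Apoe, none of them called. The mean of all probe sets was -0.16 for Abcg1 and -0.13 for Apoe, so the sign depended on the probe set.

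Of 20 measured genes of the list of ligands cleared by scavenger receptors 0 rose and 3 fell, with a median log2 difference of -0.27. Besides ligands the list holds the enzymes of haem breakdown Hmox1 and Blvrb, with log2 differences of 0.42 and 0.33, neither called. Sparc, the matrix protein that Stab1 clears, had 3356, 1609 and 1454 on the Colony arrays, against 5796, 6190 and 15360 on the A16 arrays. Its cultures spread widely but the groups did not overlap (log2 difference -2.38, standard error 0.43, adjusted p = 0.00883 from limma). The size of the Sparc difference depended on single cultures, at -1.70 without A16 replicate 2 and -3.06 without A16 replicate 1, and was -1.73 with the technical arrays joined to biological replicate 2. Plat, a plasminogen activator that Lrp1 clears, fell by 1.52 (adjusted p = 0.00112 from limma). Hspg2, the heparan sulphate proteoglycan perlecan, fell by 1.26 (adjusted p = 0.0153 from limma), but the log2 difference was -0.85 without A16 replicate 2, under the fold threshold. It also no longer passed without Colony replicate 2 (-1.16), with the technical arrays joined to biological replicate 2 (-0.91) or with them left out (-1.08). Thbs1 was not measured.

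Of 20 measured genes of clathrin endocytosis and caveolae 1 rose and 0 fell, with a median log2 difference of 0.07. Dimmer probe sets were called lower for Epn2 (log2 differences -1.80 and -1.45), Cav1 (-1.52) and Ap2b1 (-1.03). The brightest probe sets of these genes gave -0.57, 0.09 and 0.44. Dnm1, a dynamin that pinches off coated vesicles, had 1846, 1401 and 985 on the Colony arrays, against 460, 467 and 500 on the A16 arrays (log2 difference 1.39, standard error 0.23, adjusted p = 0.00649 from limma). The Colony arrays of Dnm1 spread more than the A16 arrays, yet all lay above them.

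**Figure D3:**
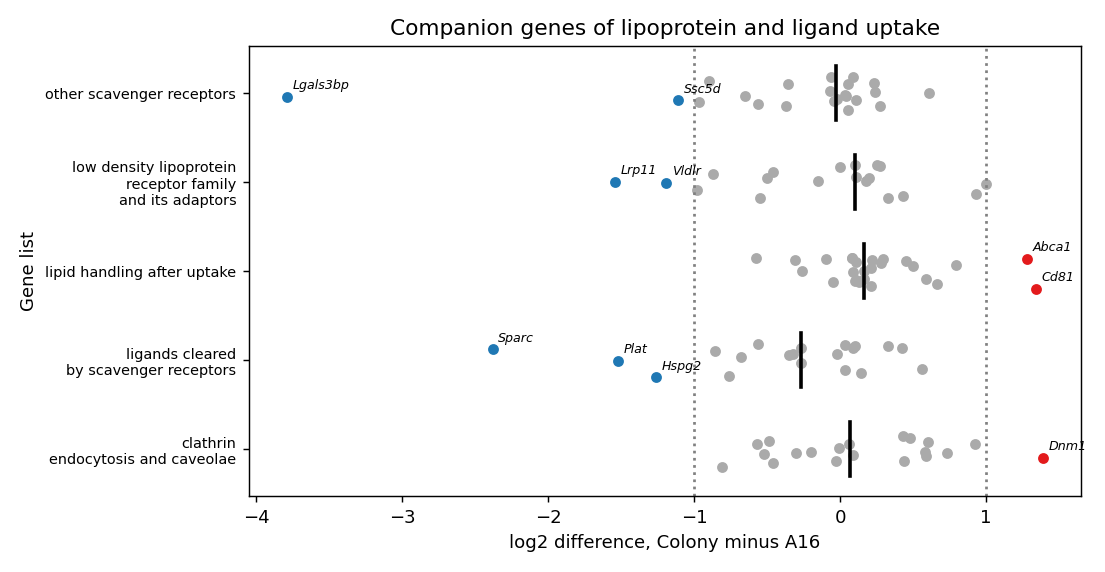
Log2 difference, Colony minus A16 (horizontal axis, n = 2 cultures per group), of each measured gene of the 5 companion lists (vertical axis); red points were called higher and blue points lower, grey points were not called, a black bar shows the median of each list and the dotted lines stand at 2-fold. The called genes are named, from Lgals3bp at -3.79 to Dnm1 at 1.39.

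The pattern of Colec12 over the 6 arrays was set against 13974 other genes, by the Euclidean distance of log2 RMA values after centring each gene on its mean. The nearest was Tagln, the actin-binding transgelin, at a distance of 0.39, with 54, 47.5 and 43 on the Colony arrays, against 4131, 4550 and 4179 on the A16 arrays. Then followed Heph, a ferroxidase, at 0.62, Rsad2, the antiviral protein viperin, at 1.05, Meox2, a homeobox factor, at 1.08, and Bst2, the antiviral tetherin, at 1.30. These genes had log2 differences of -6.51, -6.05, -5.74, -5.64 and -5.46, and so are the genes with falls of about the size of that of Colec12. For Cd163, the member with the highest difference, the nearest were Kdf1, Snx7, Cdx2, Il24 and Wnt8b, at distances of 0.08 to 0.13, and all 5 had their highest array in biological replicate 2 of the Colony group.

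On rat chromosome 18, in the order of the RefSeq annotation, the nearest measured genes on either side of Colec12 were not called. The genes directly beside it had no value here, and those measured lay 4, 6 and 16 genes away on one side and 4, 5 and 6 on the other. This look at neighbours was chosen after the values of Colec12 were seen. On one side Cetn1, Zfp136 and Mtmr1 had log2 differences of 0.03, 0.27 and -0.52 (adjusted p = 0.907, 0.285 and 0.0618 from limma). On the other side Thoc1, Usp14 and Rock1 had 0.41, 0.61 and -0.21 (adjusted p = 0.110, 0.0153 and 0.660 from limma). Usp14, a deubiquitinase of the proteasome, had 8090, 8609 and 7891 on the Colony arrays, against 5191, 5243 and 5409 on the A16 arrays, and was thus on the higher side.

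**Figure D4:**
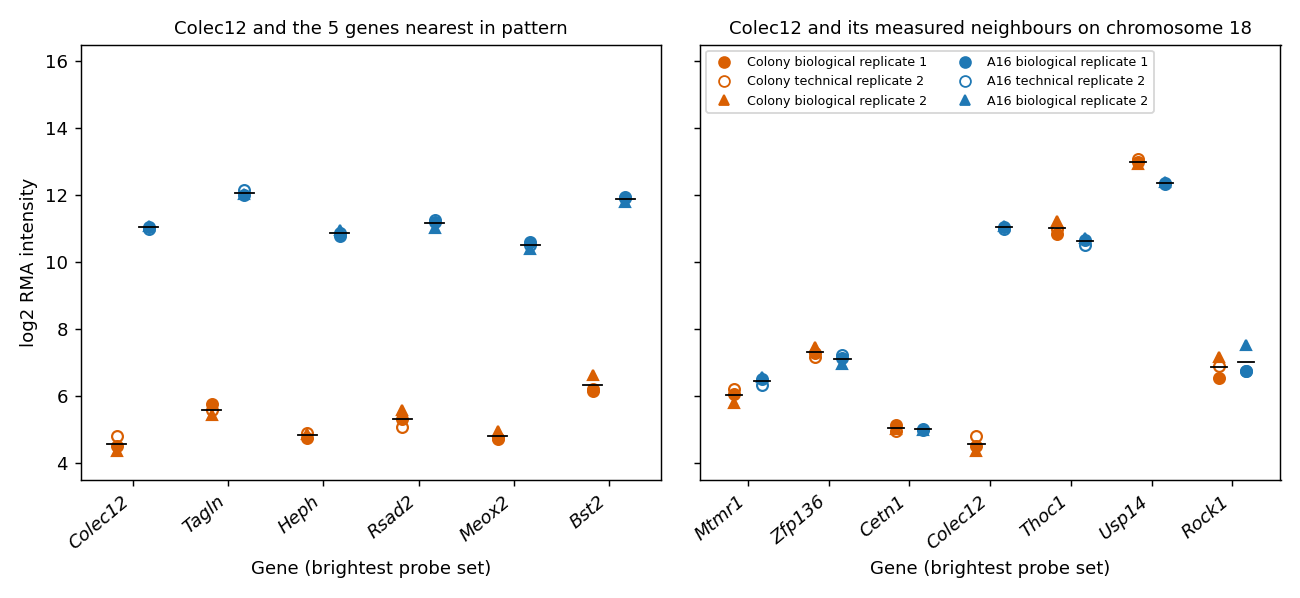
Log2 RMA intensity (vertical axis) on each array of Colec12 with the 5 genes nearest to it in pattern (left) and with 3 measured neighbours on each side of it on chromosome 18 (right), Colony in orange and A16 in blue, symbols by replicate and short bars for means over 3 arrays. The neighbours lie between -0.52 and 0.61 in log2 difference, whereas Colec12 and the genes on the left lie between -6.53 and -5.46.

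Over all probe sets the arrays of a group differed by an SD of 0.174 to 0.331 on the log2 scale, and a Colony array and an A16 array by 0.673 to 0.762. Of 12 fibroblast markers 0 rose and 3 fell, namely the collagens Col1a1 (log2 difference -2.72) and Col3a1 (-1.40) and the surface glycoprotein Thy1 (-1.31), with a summed RMA intensity of 67325 to 70705 on the Colony arrays and of 85212 to 96250 on the A16 arrays. Vim, an intermediate filament protein of fibroblasts, had a log2 difference of 0.16, while the fibroblast proteoglycan Dcn had RMA intensities of only 23.6 to 25 on the Colony arrays and of 23.8 to 28.1 on the A16 arrays. Of 15 macrophage and leukocyte markers 1 rose, the receptor Csf1r, with 824, 620 and 538 on the Colony arrays, against 44.9, 41.3 and 34.4 on the A16 arrays. The other 14 had a summed RMA intensity of 795 to 884 on the Colony arrays and of 749 to 829 on the A16 arrays, and 0 of them were called. Of 9 endothelial markers 0 were called, with a summed intensity of 677 to 708 on the Colony arrays and of 775 to 868 on the A16 arrays. The brightest of them, Egfl7, had 296, 285 and 305 on the Colony arrays, against 491, 502 and 451 on the A16 arrays. It weighs most in these sums, and the median log2 difference of the 9 was 0.10. Of 6 adipocyte markers 1 fell, the complement factor Cfd (log2 difference -1.57), and their sum was 237 to 243 on the Colony arrays and 358 to 372 on the A16 arrays. Cfd alone had 75.2, 74.7 and 73.7 on the Colony arrays, against 206, 212 and 233 on the A16 arrays. The median log2 difference of the 6 was 0.09. The part of these markers in the member values was not tested.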

How the data were processed

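The authors hybridised RNA of Colony and A16 cells to 6 arrays, scanned them with GeneChip Operating Software and computed RMA and PLIER values in Avadis. Both sets of deposited values are intensity on a linear scale. The version of neither method was stated in the sources used here. Array medians of RMA were 97.6 to 101, so a shift shared by most probe sets cannot be seen. The members, lists, tests and alternatives were chosen with earlier results of these data known.

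Control probe sets (57 of 31099) were left out. The log2 of RMA, with nothing added, was fitted over 31042 probe sets in R 4.3.3 (limma 3.58.1, functions lmFit and eBayes), Colony minus A16, with n = 2 cultures per group and Benjamini-Hochberg adjustment over all probe sets. The standard errors come from this fit, whose prior degrees of freedom were 4.76. Calls were made at more than 2-fold with an adjusted p below 0.05, and no dim values were filtered out. The p-values measure the spread between these cultures only, whose small number limits the precision. Symbols were taken from the 20826 probe sets (67.1%) with 1 gene symbol, and brought up to date from RefSeq genes (GRCr8), for 20758 by gene identifier and for 2 by accession.

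The text names every probe set of the members, up to 4 called genes of each companion list by size, companion genes listed for their role whatever their result (some of which are not reported here), and the 5 genes nearest in pattern to the members with the largest and the smallest log2 difference. The fit was tested on simulated data. Figures were drawn with Python 3.11.15. No array batch was tested, since neither slide nor scan date is in the labels. The alternatives were PLIER, other uses of the technical arrays, a replicate block, a filter on dim values, centring, the methods' t-test, no fold threshold, the mean of all probe sets and leaving out each replicate. Other cell states of the study were not used here.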

Additional observations from a re-analysis of the deposited data

How the results depend on the processing

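Colec12 was called lower under the 11 planned settings in which member calls were counted, with log2 differences of -6.68 to -5.79. Of these, PLIER as log2(value) was added after seeing the data. The methods' t-test was not among these settings, and after adjustment it called 0 of all probe sets, so Colec12 does not pass there. In that added setting 2 members were called lower, the second being Scara3. Over the 11 or 12 settings that each could be given in, the log2 difference of Cd36 ran from -0.36 to 0.11, that of Lrp1 probe set 1396767_at from -0.26 to 0.21, that of Olr1 from -0.20 to 0.04 and that of Cd163 from -0.01 to 0.50, so these 4 have no settled direction, nor has Stab1, whose groups overlapped at -0.30 to -0.01. The other 6 probe sets were lower in Colony cells in each setting. Among them Scarb1 probe set 1367855_at ran from -0.53 to -0.11 and its groups overlapped in PLIER, so its direction is not settled either.

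Of 206 counts under an alternative 174 stayed within 1.5 times the reported count. With the replicate block 1254 probe sets were called higher and 1867 lower, against 1242 and 1803 without it, and the block changed no count by over 1.5 times. The differences between replicates 1 and 2 had only a weak negative correlation between the 2 groups (-0.148 across 31042 probe sets). A crossed pairing, added after seeing the data, called 1256 higher and 1879 lower. With no fold threshold 3545 were higher and 3511 lower. The methods' t-test called 1070 higher and 1313 lower at an unadjusted p and 0 and 0 after Benjamini-Hochberg adjustment.

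With no fold threshold 1 gene of other scavenger receptors was higher and 6 lower, and 2 and 5 of the low density lipoprotein receptor family. Of lipid handling 5 were higher, of the ligand list 1 was higher and 6 lower, and of clathrin endocytosis 6 and 2. With PLIER as log2(value + 16) 4 genes of the list of other scavenger receptors fell, Pear1 and the signalling receptor Tlr4 among them. With the methods' t-test at an unadjusted p 1 gene of the list of other scavenger receptors and 1 of the ligand list fell. Of endocytosis genes 0 rose, and after adjustment 0 genes were called in any list. With the mean of all probe sets of a gene 1 gene of the lipoprotein receptor family, 1 of lipid handling (Soat1) and 1 of endocytosis (Epn2) fell. With arrays centred on their medians 1 gene of the lipoprotein receptor family, Mylip, rose. Lrp6 of this family, at -0.98 in the reported fit, fell with the 6 arrays as separate samples (log2 difference -1.04). It also fell with the technical arrays averaged with biological replicate 2 (-1.08) or left out (-1.01). Lrp4 fell with PLIER as log2(value + 16), at -1.03. The log2 difference of Lrp6 was -1.20 without Colony replicate 2 and -1.02 without A16 replicate 1. Leaving out a biological replicate gave 0 to 2 risen genes in the lipoprotein receptor family, with 1 without Colony replicate 1 (Lrp8), 1 without Colony replicate 2 (Mylip) and 2 without A16 replicate 1. It gave 1 to 2 risen genes of endocytosis, the 2 without Colony replicate 2 (with Bin1), and 0 to 1 fallen, the 1 without A16 replicate 1 (Epn1). These fits leave 1 culture in a group, which is assumed to vary like the other group. The filter on dim values left out Scara5, Cd36, Olr1 and Cd163, whose low intensities limit what difference could be seen.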
